A study of Rattus norvegicus with 5 samples.

Results

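The subunits of the transcription factor AP-1 (Fos, Fosb, Fosl1, Fosl2, Jun, Junb and Jund) and 3 further immediate early genes (Egr1, Myc and Ier3) were followed in FRT cells, an epithelial line from the thyroid of Fischer rats. These 10 genes were selected on the ratios between 3D and 2D culture of these same arrays, so their ratios are a description and carry no test. They were found by matching the RefSeq accession of each probe to the rat gene symbol. Of the 10 genes, 9 had a matched probe, against 15154 genes measured in all, and these 9 were read by 10 probes. Fosb had no matched probe and has no value here. Fos stayed at background in 3D and in 2D, so 8 of the 10 genes had a measurable level.

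RNA was taken on day 5 from cells grown as 2D monolayers or as 3D follicles in Matrigel, an extract of basement membrane in which single cells grow into hollow spheres. On each of 4 Agilent arrays (replicate arrays 1 to 4), RNA of a separate 3D culture, in Cy5, competed with RNA pooled from 4 2D cultures, in Cy3. The fifth array, called swapped below, set the 2D pool in Cy5 against pooled RNA of the 3D cultures in Cy3. The groups share the line, its Fischer origin and the day of harvest, and no treatment or genetic change is listed for either. The 2D pool was the same RNA on all arrays, so the spread of its signal is technical and the spread between 2D cultures was not measured. The swapped array holds RNA of the same cultures and is not a further replicate, but the fits below count it like the other 4 arrays, so their SEs and adjusted p-values rest on 5 arrays from 4 cultures. FRT is 1 cell line, and the cultures are replicates of that line and not of animals.

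AP-1 is a dimer of basic leucine zipper (bZIP) proteins in which Fos proteins need a Jun partner, whereas Jun proteins also pair among themselves, so the subunits present set which dimers can form. Most of these genes are immediate early genes, which growth factors, serum, stress or a change of adhesion can switch on without new protein synthesis, largely through mitogen-activated protein kinases (MAPK) and the serum response factor Srf. Egr1, a zinc finger factor, Myc, a partner of Max, and Ier3, a small protein linked to cell survival, belong to the same early response, and in thyroid cells thyrotropin and growth factors induce Fos and Myc.

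Every value below is a log2 ratio of 3D over 2D within an array unless a channel intensity is named, and a mean ± SD is over the 4 replicate arrays. The log2 ratios of the replicate arrays correlated with each other across genes at r = 0.871 to 0.946, and with the swapped array, its sign turned, at r = 0.734 to 0.765. Per array and channel, 45% to 50.9% of probes passed the scanner software's test of being well above background, and 0 spots were saturated. Of 13 thyroid epithelial markers, 9 were well above background. The thyroid factor Nkx2-1 and the hormone pathway genes Tg, Slc5a5 and Tshr were not. Of the marker lists for cells that should be absent, fibroblasts had 4 of 8 genes above background, endothelium 2 of 6, leukocytes 2 of 8 and C cells 2 of 5. Pdgfra (0.55) and Esam (-0.48) passed the limma test, and their part in the results below was not tested. The summed linear intensity of the fibroblast markers ranged from 739 to 873 in 3D and from 686 to 713 in 2D, and that of the endothelial markers from 490 to 515 and from 553 to 573. In bulk RNA, fewer cells that express a gene and less RNA per cell cannot be told apart.

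Over all genes, 25.9% passed the limma test of 3D against 2D at a false discovery rate (FDR) of 0.01, 14.4% as higher and 11.5% as lower in 3D. Of the 9 measured genes, 3 lay past that line, Fosl2 and Junb as higher and Fosl1 as lower. Nothing is read from this count, since the genes were chosen on the same ratios. Their median fitted ratio was -0.12, and the median over all genes was 0.0031. The set had no common direction, as the plot of all 10 probes shows: 5 of 9 genes were above 0 on replicate array 1, 4 of 9 on each of replicate arrays 2, 3 and 4, and 2 of 9 on the swapped array.

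**Figure D1:**
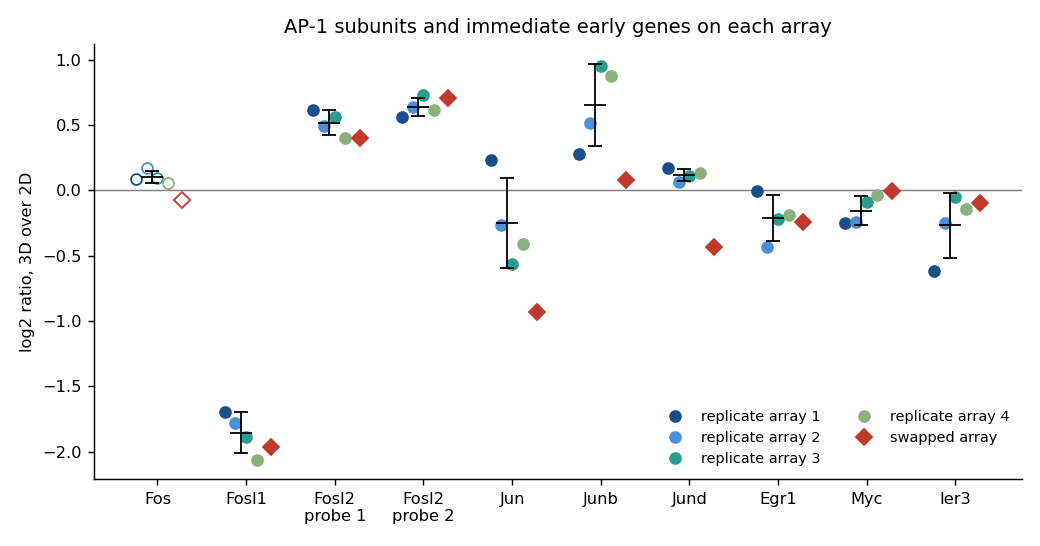
Each point is the log2 ratio of 3D over 2D of 1 probe on 1 array, circles for the 4 replicate arrays and diamonds for the swapped array, and bars give the mean ± SD over the replicate arrays. Open symbols (Fos) were not well above background. Fosl1 lies between -2.06 and -1.69 on all 5 arrays and both Fosl2 probes lie above 0, whereas Jun, Junb and Jund differ between arrays.

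In the Fos family, Fosl1 and Fosl2 lay on opposite sides of 0 on every array. Fosl1 (Fra-1) and Fosl2 (Fra-2) are Fos proteins that lack the strong activation domain of Fos and Fosb. The log2 ratio of Fosl1 was -1.69, -1.78, -1.89 and -2.06 on replicate arrays 1 to 4 and -1.96 on the swapped array. It was low on all 5 arrays, with the swapped array inside the range of the replicates. The mean was -1.85 ± 0.16 (SD, n = 4), and the fit over 5 arrays gave -1.88 with an SE of 0.06, a level 3.67-fold lower in 3D. It ranked 12 from the lowest of 15154 genes.

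Both channels of Fosl1 were well above background on all arrays. The log2 intensity was 9.24, 8.58, 8.49 and 8.55 in the 2D channel of the replicate arrays and 9.07 in that of the swapped array. In the 3D channel it was 7.55, 6.80, 6.60, 6.49 and 7.11 in the same order. On each array the 3D channel lay below the 2D channel. The 2D values are 1 pooled RNA read on every array, so the channels are not groups of replicates. Both channels were brighter on replicate array 1 and on the swapped array than on the others, and the ratio within an array varied less than either channel did.

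Fosl2 was read by 2 probes, and both were above 0 on all 5 arrays. The brighter one, used for the gene and shown as probe 2 in the plot by array, gave 0.56, 0.64, 0.73 and 0.62 on the replicate arrays and 0.71 with dyes swapped. The other probe gave 0.62, 0.49, 0.56, 0.40 and 0.40. Their means were 0.64 ± 0.07 and 0.52 ± 0.09 (SD, n = 4). The probes had the same direction and lay furthest apart on the swapped array, at 0.71 and 0.40. The fit on the brighter probe was 0.65 with an SE of 0.04, a level 1.57-fold higher in 3D, and it ranked 504 from the highest of 15154 genes. The fit on the other probe was 0.49 with an SE of 0.05, a level 1.41-fold higher in 3D. Within an array, the ratio of Fosl2 exceeded that of Fosl1 by 2.26 to 2.68, with a mean of 2.49 ± 0.19 (SD, n = 4).

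Fos itself, the founding member, had ratios of 0.09, 0.17, 0.10 and 0.06 on the replicate arrays and -0.07 with dyes swapped. It was not well above background on any of the 5 arrays in either condition, so no fold is given. Its level on day 5 was not detectable at the signal of these arrays.

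The promoters of Fosl1 and Fosl2 are shown because these genes had the lowest and the highest fitted ratio of the 9. The sequences are the 250 bases before the annotated start in RefSeq on build GRCr8, 5' to 3' on the strand of the gene, at chr1:212183635-212183884 (plus strand) and chr6:30039270-30039519 (minus strand). Capitals mark matches on either strand to TGACG, part of the cyclic AMP response element, or to the GC box GGGCGG.
Fosl1: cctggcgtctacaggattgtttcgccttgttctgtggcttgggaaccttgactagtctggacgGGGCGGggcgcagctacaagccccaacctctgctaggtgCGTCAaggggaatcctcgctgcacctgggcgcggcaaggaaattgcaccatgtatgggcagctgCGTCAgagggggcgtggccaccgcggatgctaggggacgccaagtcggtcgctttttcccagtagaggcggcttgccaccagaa
Fosl2: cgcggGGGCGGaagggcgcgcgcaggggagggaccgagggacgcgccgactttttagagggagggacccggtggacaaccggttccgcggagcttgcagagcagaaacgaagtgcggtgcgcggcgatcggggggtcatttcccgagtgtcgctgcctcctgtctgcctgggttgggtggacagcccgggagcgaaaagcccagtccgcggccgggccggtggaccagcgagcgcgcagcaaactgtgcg

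Of the 10 genes, 6 had a promoter entry (Fosb, Fosl1, Fosl2, Junb, Jund and Egr1), and each was searched on both strands. TGACG was found in 4 of the 6 and in 18.2% of all 33469 promoters, and in Fosl1 it lay at -148 to -144 and at -84 to -80 relative to the start. GGGCGG was found in 3 of the 6 and in 30.5% of all, at -187 to -182 in Fosl1 and at -245 to -240 in Fosl2. The AP-1 site TGAGTCA was in none of the 6 and in 4.05% of all, and the Myc site CACGTG was in none of the 6 and in 5.59% of all. The full response element TGACGTCA, which contains TGACG, and the Egr site GCGTGGGCG were in Jund alone among the 6, and in 1.59% and 0.478% of all promoters. The CArG box, the motif of Srf, was in Egr1 alone among the 6 and in 1.5% of all. These matches describe letters in a short window and say nothing of binding in FRT cells.

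In the Jun family, the 3 genes did not move alike. Jun, the main partner of Fos proteins, had ratios of 0.24, -0.26, -0.56 and -0.41 on the replicate arrays and -0.93 with dyes swapped. It was higher in 3D on replicate array 1 and lower on the other 4 arrays. The mean was -0.25 ± 0.35 (SD, n = 4), a spread larger than the mean, and the fit over 5 arrays was -0.39 with an SE of 0.13. The log2 intensity in the 3D channel was 10.31, 9.75, 9.51 and 9.58 on the replicate arrays, and in the 2D channel it was 10.07, 10.01, 10.07 and 9.99. The SD over replicate arrays was 0.36 for the 4 separate 3D cultures and 0.04 for the 2D pool, where it is technical only because the RNA is the same. No contrast is drawn between such SDs, here or for Junb below, since the cultures were in Cy5 and the pool in Cy3. For Fosl1 the same pool had an SD of 0.35.

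Junb, a Jun protein with weaker activation than Jun at many promoters, was above 0 on all 5 arrays. Its ratios were 0.28, 0.51, 0.95 and 0.87 on the replicate arrays and 0.08 with dyes swapped. The mean was 0.66 ± 0.31 (SD, n = 4), and the fit was 0.54 with an SE of 0.12, a level 1.45-fold higher in 3D. The direction was the same on every array, and the size was not. In the 3D channel the log2 intensity was 11.17, 11.50, 11.97 and 11.99 on the replicate arrays, with an SD of 0.39. The 2D channel lay between 10.89 and 11.12 on these arrays, with an SD of 0.09. Junb was read from 1 spot per array, so no spread between spots is known.

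The replicate array on which Jun was highest in 3D was the one on which Junb was lowest. The ratio of Junb exceeded that of Jun by 0.05, 0.78, 1.51 and 1.29 on the replicate arrays and by 1.01 with dyes swapped. Junb was therefore above Jun on all 5 arrays, with a mean difference of 0.91 ± 0.65 (SD, n = 4).

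Jund, the Jun protein least dependent on growth signals, had ratios of 0.17, 0.06, 0.11 and 0.13 on the replicate arrays and -0.43 with dyes swapped. The replicates lay close together at 0.12 ± 0.04 (SD, n = 4), and the swapped array lay on the other side of 0. The fit over 5 arrays was 0.0082 with an SE of 0.08. When limma also fitted the dye, the ratio of Jund became -0.16. Over all genes 1.9% passed FDR 0.01 for the dye term. It rests on the same 5 ratios by which these genes were chosen, so no test of it is given for them. Since only 1 array had swapped dyes, the dye and that array cannot be told apart.

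Egr1, Myc and Ier3 had negative ratios. Egr1 gave -0.0014, -0.43, -0.22 and -0.19 on the replicate arrays and -0.24 with dyes swapped. It was below 0 on all 5 arrays, by almost nothing on replicate array 1, and its mean was -0.21 ± 0.18 (SD, n = 4). Myc gave -0.25, -0.24, -0.09 and -0.04 on the replicate arrays and -0.0029 with dyes swapped, with a mean of -0.15 ± 0.11 (SD, n = 4). Myc was printed as 10 spots per array, whose ratios had an SD between 0.03 and 0.07 within an array, less than the spread between arrays. The fitted ratios were -0.22 with an SE of 0.06 for Egr1 and -0.12 with an SE of 0.05 for Myc. They lay at percentiles 11.5 and 17.3 from the lowest of all genes. Egr1 was dim, with a mean log2 intensity of 6.58 in 3D and 6.79 in 2D, against 6.18 and 6.11 for Fos. Without the offset used in the background correction its fit was -0.45, so the size of its ratio is uncertain.

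Ier3 gave -0.62, -0.25, -0.05 and -0.14 on the replicate arrays and -0.09 with dyes swapped. All 5 values were below 0, and replicate array 1 lay apart from the other 4. Its 10 spots agreed to an SD of 0.05 to 0.08 within an array, whereas the SD between replicate arrays was 0.25 around a mean of -0.27 (n = 4). The log2 intensity had an SD of 0.28 over the 3D cultures and 0.03 over the repeated 2D pool. The corresponding SDs were 0.18 and 0.04 for Egr1 and 0.09 and 0.02 for Myc. No contrast is drawn between these SDs, since separate cultures in Cy5 stand beside 1 RNA in Cy3.

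**Figure D2:**
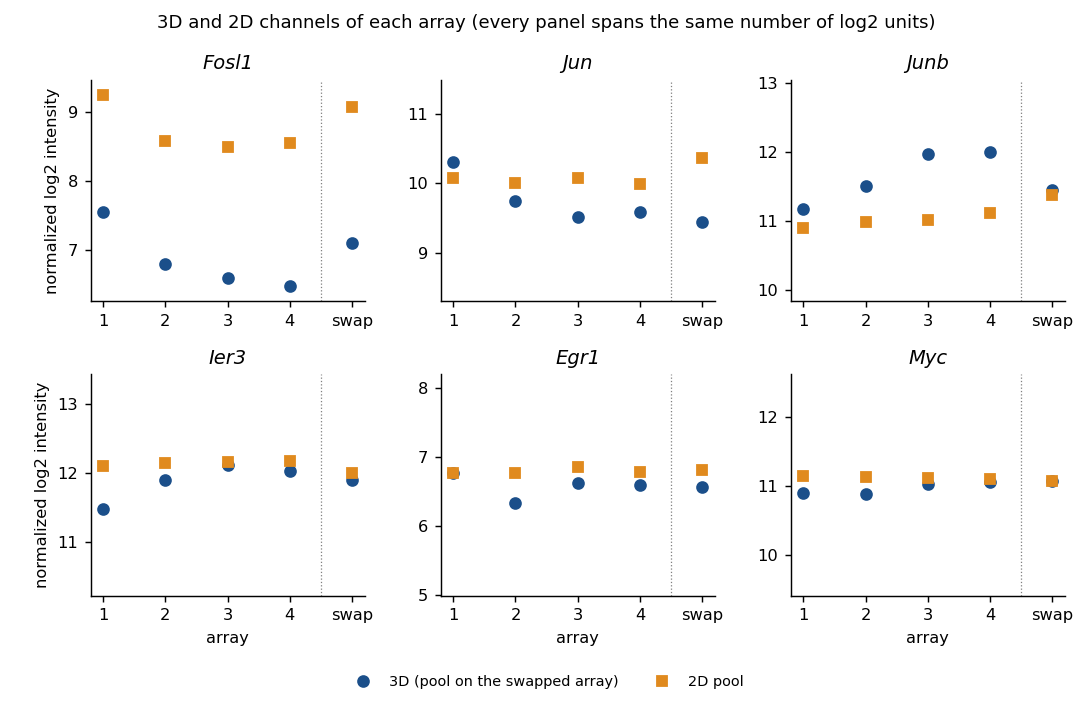
Normalized log2 intensity (vertical axis) of the 3D channel (circles) and the 2D channel (squares) on the 4 replicate arrays and the swapped array (horizontal axis) for 6 genes. The squares are 1 pooled RNA on every array and the circles on the replicate arrays are separate cultures. For Fosl1 the squares lie between 8.49 and 9.24 and the circles between 6.49 and 7.55, and for Jun the circle of replicate array 1 lies above its square.

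The fitted ratios were computed again under 14 other choices of processing or arrays, shown in the plot of alternatives. Fosl1, Fosl2, Junb and Egr1 kept their sign in all 14. Fosl1 ranged from -2.85 with the signals processed by the scanner software to -1.56 when arrays were centred on their median in place of loess. Fosl2 ranged from 0.57 to 1.04, Junb from 0.37 with a dye term to 1.07 with median centring, and Egr1 from -0.62 to -0.13. Jun, Myc and Ier3 turned positive with median centring, at 0.14, 0.41 and 0.28, and stayed below 0 in the other 13. Jund had the sign of its fitted value in 6 of 14, between -0.16 and 0.47.

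**Figure D3:**
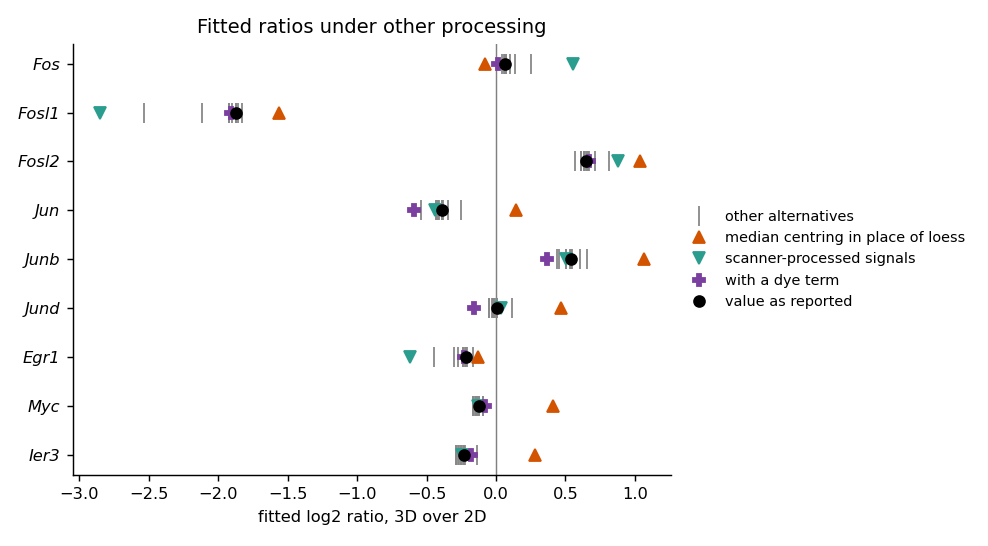
Fitted log2 ratio of 3D over 2D (horizontal axis) of each measured gene as reported (black circle) and under the alternatives, of which median centring, the signals processed by the scanner software and the dye term have symbols of their own. Median centring moved most genes to the right, up to 1.07 for Junb, and Fosl1 stayed at or below -1.56 throughout.

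The other genes of the early response were read from lists that leave out the genes above, and for them the limma test at FDR 0.01 is given. These lists too were chosen with earlier results of these data known. Their shares and adjusted p-values are therefore not independent evidence. Of 36 further immediate early genes, 27 stood above background in 3D, in 2D or in both. In 3D, 4 rose and 10 fell, and 22 did not pass. The median was -0.0027 and 38.9% passed, against 0.0031 and 25.9% over all genes. The list held changes in both directions, and its median near 0 included genes at background. With dim probes left out, those not above background on all arrays of either condition, the median was -0.21, against 0.03 over all genes. Then 14 of 25 passed, 4 as higher and 10 as lower, against 3928 of 8029 over all genes. With median centring in place of loess, 7 of all genes and none of any list below passed.

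The 4 that rose were Trib1, a pseudokinase (0.84, adjusted p = 0.00103), Klf10, a zinc finger factor induced by TGF-beta (0.77, adjusted p = 8.29e-06), and, named after their values were seen, Btg1, an inhibitor of proliferation (0.60), and the nuclear receptor Nr4a2 (0.31). Trib1 was at 1.32, 1.07, 0.90 and 0.82 on the replicate arrays and at 0.11 with dyes swapped, and its fitted value ranged from 0.57 with a dye term to 1.51 with the signals processed by the scanner software. The deepest falls were in Atf3, a bZIP factor of the stress response (-1.71, adjusted p = 2.37e-07), and Gadd45b, a stress protein that binds MAPK kinases (-1.52, adjusted p = 9.65e-07). Both were below -1 on all 5 arrays, Atf3 between -1.95 and -1.45 and Gadd45b between -1.82 and -1.18. Nr4a1, Arc, Egr2, Egr4 and Ptgs2, named after their values were seen, were not well above background on any array, like Fos.

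Among bZIP proteins that can pair with AP-1 subunits or are related to them, 22 of 23 were measured and 17 were above background. In 3D 1 rose and 6 fell, with a median of -0.05, and 31.8% passed, against 25.9% over all genes. With dim probes left out, 7 of 16 passed, against 3928 of 8029 over all genes. The one that rose was Nfe2l2, the regulator of the antioxidant response (0.94, adjusted p = 2.34e-05). The largest falls were those of Atf3, which is also in the list above, and Nfe2l1, which controls proteasome genes (-1.05, adjusted p = 1.03e-06). Atf2, a known partner of Jun (-0.07), and its relatives Atf7 (0.05) and Creb1 (0.19), picked with their values known, did not pass.

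Of the genes that passed, those of the MAPK and Srf route were mostly higher in 3D and the MAPK phosphatases mostly lower. Of 36 route genes, 29 were measured, 10 rose and 1 fell, with a median of 0.05. This is 37.9% of the list, against 25.9% over all genes, where 14.4% were higher and 11.5% lower. When dim probes were left out, 11 of 25 route genes passed, a smaller share than the 3928 of 8029 over all genes. The largest rises were in Map3k1, a kinase upstream of Jun kinase (0.92, adjusted p = 1.58e-06), and Rps6ka3, a kinase activated by Erk (0.73, adjusted p = 9.16e-06). Map2k2, a direct activator of Erk, was the gene that fell (-0.22, adjusted p = 0.00129), and it turned to 0.24 with median centring. Srf, counted here and among the early genes and picked with its value known, was at 0.05 and did not pass. The count of 11 calls fell to 4 without the normexp offset and to 6 with the signals processed by the scanner software. All of these were higher in 3D. With a dye term 13 passed, 9 as higher and 4 as lower.

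The dual specificity phosphatases inactivate MAPKs and many are themselves early genes. Of 11, 10 were measured, 8 of them above background, 1 rose and 5 fell, with a median of -0.46. Here 60% passed, against 25.9% over all genes. Without dim probes the counts were 6 of 7 and 3928 of 8029. Dusp5, which acts on nuclear Erk, fell to between -1.74 and -1.29 on the 5 arrays (-1.59, adjusted p = 1.52e-07), and Dusp8, which acts on Jun kinase and p38, to between -1.22 and -0.998 (-1.10, adjusted p = 2.15e-07). The other 3 that fell, named after their values were seen, were Dusp14 (-0.97), Dusp1 (-0.78) and Dusp9 (-0.76). Dusp6, which acts on cytoplasmic Erk, was the one that rose (0.17, adjusted p = 0.00679), and it passed in only 4 of 14 alternatives, in none of those that left out 1 replicate array. The median of the list was below 0 in all 14 alternatives, from -0.78 to -0.27.

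**Figure D4:**
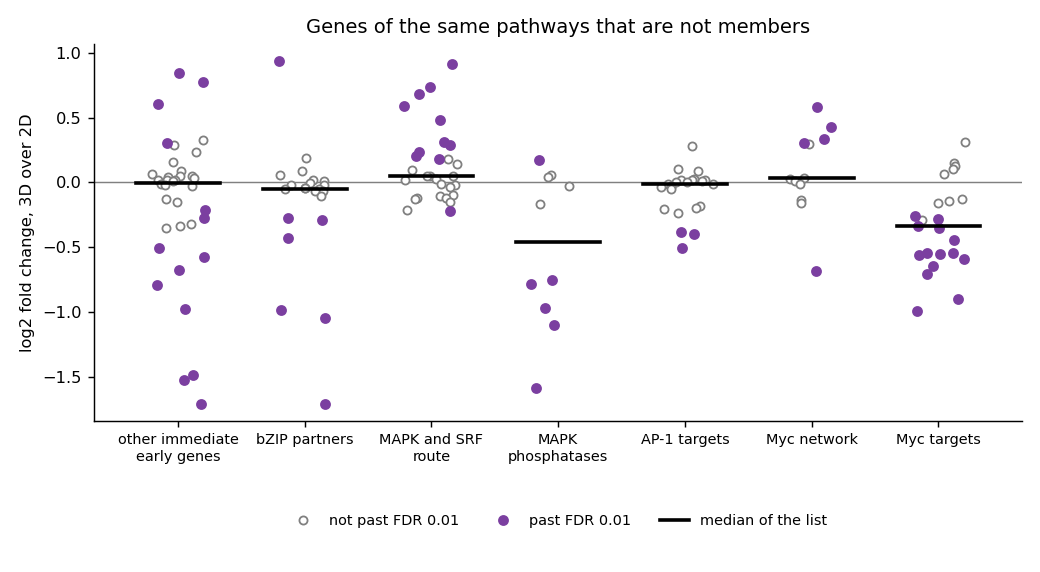
Fitted log2 fold change of 3D over 2D (vertical axis) for every measured gene of 7 lists (horizontal axis), filled where limma passed FDR 0.01 and open where it did not, with the median of each list as a bar. The bars of the MAPK phosphatases (-0.46) and Myc targets (-0.34) lie below 0 and the other 5 lie between -0.05 and 0.05. These medians include genes at background. With dim probes left out, those of the other immediate early genes and the AP-1 targets were -0.21 and -0.20.

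Genes known as AP-1 targets were mostly dim and few passed. Of 24, 23 were measured and 11 were above background. None rose and 3 fell at FDR 0.01, while 2 rose and 7 fell at an unadjusted p under 0.05, and the median was -0.02. Here 13% passed, against 25.9% over all genes. Without dim probes the counts were 3 of 9 and 3928 of 8029, and the medians were -0.20 for the list and 0.03 over all genes. The 3 were the growth factor Hbegf (-0.51, adjusted p = 0.00244), the chromatin protein Hmga1 (-0.40, adjusted p = 9.01e-05) and, named after its values were seen, the urokinase receptor Plaur (-0.38). Hbegf is also in the list of early genes, ranged from -0.86 to -0.09 over the 5 arrays and lost its call without replicate array 3 or 4. Hmga1 was at -1.30 with the signals processed by the scanner software. The matrix proteases Mmp3, Mmp9, Mmp10 and Mmp13 and the protease gene Plau, named after their values were seen, were not well above background on any array in either condition.

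Of 17 genes of the Myc network, 12 were measured, 4 rose and 1 fell, with a median of 0.03. This is 41.7% of the list, against 25.9% over all genes. Leaving out dim probes, 5 of 11 passed, against 3928 of 8029 over all genes. The partner Max, picked with its value known, was at 0.01 and did not pass. Among antagonists of Myc, Mnt was higher in 3D (0.58, adjusted p = 0.000267), and Mxd1 passed as higher too. Mxd1 was above background on 5 of 5 arrays in 3D and on only 1 of 5 in 2D, so the size of its ratio is uncertain, and it ranged from 0.26 to 2.29 over the alternatives. Mxi1, a further antagonist (0.33), and Trrap, a Myc cofactor (0.31), also rose and were named after their values were seen. Mxd3, of the same family as Mxd1, fell (-0.68, adjusted p = 0.000124). Its ratios were -0.26, -0.75, -0.75 and -0.74 on the replicate arrays and -0.91 with dyes swapped.

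Genes known as Myc targets serve ribosome assembly, nucleotide supply and the metabolism of growing cells. Of 24, 23 were measured and 22 were above background. None rose and 14 fell at FDR 0.01, while 2 rose and 18 fell at an unadjusted p under 0.05, and the median was -0.34. At FDR 0.01 60.9% passed, against 25.9% over all genes. Without dim probes the counts were 14 of 21 and 3928 of 8029. Without the swapped array 3 rose and 14 fell. The nucleolar protein Ncl was at -1.22, -1.12, -1.16 and -1.05 on the replicate arrays and at -0.43 with dyes swapped (-0.997, adjusted p = 4.76e-05). Shmt2, a mitochondrial enzyme of serine metabolism, lay between -1.02 and -0.79 on all 5 arrays (-0.90, adjusted p = 5.1e-07). With median centring the list's median was 0.01 and none of its genes passed, while the other 13 alternatives kept the median below 0. Myc itself lay between -0.25 and -0.0029 on the same arrays.

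The genes whose ratios were most like those of Fosl1 and of Fosl2 over the 5 arrays were sought among 9010 genes well above background, by the root mean square difference of the 5 log2 ratios. This measure picks ratios of like size, and shared regulation was not tested. For Fosl1 they were Rsad2 (0.164), Nppb (0.165), Dennd5a (0.201), Ppp1r15a (0.216) and Acat2 (0.223). Rsad2 is an interferon-induced antiviral gene, Nppb encodes a natriuretic peptide, and Ppp1r15a is induced by stress. For Fosl2 they were Gpr108 (0.032), Syt12 (0.048), Ube2r2 (0.060), Kdm5b (0.063) and Tax1bp1 (0.065).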

How the data were processed

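RNA of 4 3D cultures and of a 2D pool, each of FRT cells, was measured on 5 Agilent 2-colour rat arrays of 1 slide, read in 1 scan. The intensity values used here, medians of spot and local background, were deposited as Agilent Feature Extraction 10.7.3.1 read them, per the file headers, without normalization. The authors also deposited a table of log2 ratios, made with limma (version not given in the sources used here) by normexp, loess and quantiles. Checked against the intensities, each of its 5 columns gave 3D over 2D, and their medians lie between -0.0064 and 0.0011.

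Values were computed from the intensities in R 4.3.3 with limma 3.58.1: normexp with an offset of 50, which compresses ratios of dim genes, loess with control spots at weight 0, and quantiles on average intensity. Spots marked as outliers by the scanner software (1.12% to 1.6% per array) were left out and spots of a probe were averaged. Probes designed on build rn4 were named through RefSeq accessions in a table of build GRCr8. Of 30367 probes, 17998 had a symbol. The brightest probe stood for a gene, and 2605 of 15154 genes had several. A gene counted as above background in a condition where at least a share of 0.5 of a probe's spots passed the scanner's test.

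All 5 arrays, with the ratio of the swapped one inverted, entered a limma model with a single 3D coefficient, tested at an FDR of 0.01 (Benjamini-Hochberg over 15154 genes, prior of 5.12 degrees of freedom). Another model also held a dye term. From the signs of the 4 replicate arrays, the smallest exact two-sided p is 0.125. The swapped array, made from RNA of the same cultures, had the weight of a replicate, and 5050 genes passed without it. The p-values leave out the spread between 2D cultures, and the number of arrays limits the precision. The fit was tested on simulated data.

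The genes described and all lists were chosen with earlier results of these data known. Named beside them are, in each list, at most 2 genes that rose and 2 that fell most among those that passed, moved alike on all 5 arrays and were above background in the brighter condition, and the 5 genes most like Fosl1 and Fosl2. The scanner's own log10 ratios were not used here, and 14 alternatives were run.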

Additional observations from a re-analysis of the deposited data

Results flagged for a closer look

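The log2 ratio of Mxd3, an antagonist in the Myc network, was -0.265 on replicate array 1, while the other 3 replicate arrays lay between -0.75 and -0.74 and the swapped array at -0.91. The gap of replicate array 1 to its nearest neighbour was 0.976 of the whole range of the 4 replicates, above Dixon's critical value for 4 samples. It was the only one of 28 genes tested in this way that stood out, and chance alone flags about 1 in 20 such groups. Without replicate array 1 the gene kept its call.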

How the results depend on the processing

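Over all genes 3918 passed, 55.6% of them as higher in 3D. Without the normexp offset 2222 passed. With median centring in place of loess 7 passed, all as higher, and each list had 0 calls. The count stayed within 1.5 times under the other 12 alternatives, where the share higher lay between 49.2% and 56.7%. Of the lists, the MAPK and Srf route moved by over 1.5 times in 2 other settings, from 11 calls to 4 without the offset and 6 with the signals processed by the scanner software. The others stayed within 1.5 times of their count: 11 to 19 around 14 for the early genes, 6 to 7 for bZIP partners, 5 to 7 for phosphatases, 2 to 4 for AP-1 targets, 4 to 6 for the Myc network and 10 to 17 for Myc targets, of which 3 were higher without the swapped array. The dye effect, at 288 genes, fell to 0 without the offset and to 0 with the processed signals, 62 without background correction and 149 with quantiles over all channels or the deposited table, and rose to 12713 with median centring. Leaving out 1 replicate array gave 19 to 439 genes, 439 without array 1 and 19 without array 2. The cause of these changes was not tested. Among the genes named from lists, Map2k2 changed sign with median centring, and Dusp6 passed in 4, Hbegf in 9, Map2k2 in 11 and Trib1 in 12 of 14 alternatives. The other 15 lost their call with median centring alone. Signal limits the ratios of Fos and of the AP-1 targets, of which 11 of 23 stood above background. No paired analysis was possible because the 2D cultures were pooled.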

Other observations

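The Egr coregulators Nab1 and Nab2, which hold back Egr proteins, did not pass: Nab1 was at -0.0046 and not well above background on any array, and Nab2 was at -0.11, with 0.12, -0.03, -0.02 and 0.04 on the replicate arrays and -0.65 with dyes swapped. Among the 36 further immediate early genes, 2 passed the limma test of the dye term, Klf6 and Phlda1, named here after their values were seen. Klf6 was at -0.28, -0.29, -0.14 and -0.14 on the replicate arrays and at -0.92 with dyes swapped (dye effect 0.35, adjusted p = 0.00557). Phlda1 was at 0.34, 0.25, 0.57 and 0.46, and at -0.46 with dyes swapped (dye effect 0.43, adjusted p = 0.006). The 3D against 2D fit called neither gene.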
